A study of Mus musculus with 2 samples.

Results

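The Kcne1/Esrrb cells were 261 cells of the mouse utricle at embryonic day 14 (E14) that carried Epcam, the epithelial adhesion molecule, together with Kcne1 and Esrrb. A cell was taken when it had at least 1 Epcam UMI (unique molecular identifier, 1 counted RNA molecule), at least 2 UMIs of Kcne1 and Esrrb summed, at most 1 UMI each of Sox2 and Pou4f3, and fewer than 10 Zpld1 UMIs per 10000. Sox2 marks the sensory epithelium, Pou4f3 marks hair cells and Zpld1 is high in crista epithelium, so the rule left those cells out. The 261 cells were 8.71% (7.73 to 9.78%, exact 95% binomial interval) of the 2995 E14 cells with Epcam and at most 1 Sox2 UMI, and 2.25% (1.99 to 2.54%) of all 11588 E14 cells kept. The remaining 2734 of those 2995 cells, called here the other epithelial cells, were the comparison. Because the cells were chosen on values measured in them, every level in the E14 library below is a description and carries no test.

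The study profiled the utricular sensory epithelium of wild-type (WT) mice by droplet single-cell RNA sequencing in a library from E14 and a library from postnatal day 2 (P2). The epithelium had been peeled with thermolysin and dissociated, and 20000 cells were targeted per library. No mutant, transgene, Cre driver or drug was part of either library. With 1 library per age and no record of which animal a cell came from, animals cannot be separated, and the intervals given cover counting error only.

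The 2 files held 21887 barcodes, of which 15669 were kept, 11588 at E14 and 4081 at P2, and 23 barcode sequences occurred in both. Median depth over the deposited barcodes was 5605 UMIs at E14 and 3068 at P2. The Kcne1/Esrrb cells were deeper than the cells they were compared with, with a median of 14615 UMIs and 4139 genes against 8237.5 UMIs and 2824 genes. A rule that asks for 2 UMIs favours deep cells, so levels are given as UMIs per 1000000 (CPM) summed over a set, and shares of cells also after thinning every cell to 3000 UMIs.

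Dark cells are the potassium-secreting epithelium beside the sensory patches of the vestibular organs, the counterpart of the marginal cells of the stria vascularis in the cochlea. They take up potassium at their basal side with the Na,K-ATPase and the cotransporter Slc12a2, let chloride leave through channels that need the subunit Bsnd, and release potassium into the endolymph through the apical channel of Kcnq1 and Kcne1. Esrrb is an orphan nuclear receptor which, in the mouse cochlea, is needed for the identity of the marginal cells.

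Esrrb was found in 257 of the 261 cells (98.5%) and Kcne1 in 206 (78.9%). The median cell had 3 Esrrb UMIs and 2 Kcne1 UMIs, the highest values were 53 and 49, and the sum of the pair ranged from 2 through a median of 5 to 102. A total of 202 cells had both genes, 55 had Esrrb without Kcne1 and 4 had Kcne1 without Esrrb. Epcam reached a median of 25 UMIs per cell. Of the genes the rule kept low, Sox2 was seen in 6 cells, Pou4f3 in 1 and Zpld1 in 7. When all cells were clustered without regard to the rule, 244 of the 261 (93.5%) fell into 1 of 23 clusters, which held 467 cells in all. The other 223 cells of that cluster had fewer UMIs of the pair, at 49.7 CPM Kcne1 and 54.7 CPM Esrrb, beside 198 and 277 CPM in the Kcne1/Esrrb cells. Doublet scores marked 39 of the Kcne1/Esrrb cells (14.9%) and 397 of the other epithelial cells (14.5%).

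The 3 further markers named for these cells were much higher in them than in the other epithelial cells. Rspo3, a secreted R-spondin that strengthens Wnt signals, had per-cell values of 1.23, 7.99 and 22.0 UMIs per 10000 at the 10th percentile, median and 90th percentile, and a highest value of 41.0, while the median of the other epithelial cells was 0. Summed, Rspo3 was 925 CPM against 34.7 CPM, a ratio of 26.7 (95% counting interval 24.9 to 28.7). Lrp2, the endocytic receptor megalin, had a median of 3.59 UMIs per 10000 and summed to 386 CPM against 32.0 CPM, a ratio of 12.1 (11.1 to 13.1). Bpifb3, a member of the BPI fold family of lipid-binding proteins, was more uneven, with a median of 1.50 UMIs per 10000, a highest value of 32.5 and UMIs in 72.4% of the cells. It summed to 267 CPM against 10.7 CPM, a ratio of 24.9 (21.9 to 28.4). None of the 16 further BPI fold family genes listed reached 100 UMIs in the compared cells.

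The promoters of 3 of the marker genes are shown because the otic factors of the HMX family were among the higher genes of these cells, and a match to their core letters CAAGTG lay in each. The windows run from 250 bases before to 50 bases after a transcript start (RefSeq, GRCm38.p6), on the gene's own strand, and capitals mark CAAGTG or, on the opposite strand, CACTTG. The Lrp2 window was chr2:69585980-69586279 (minus strand), with the match 187 bases before the start. Of a pair of Bpifb3 windows, the one at chr2:153917948-153918247 (plus strand) had the match, 121 bases before its start, and the other had none. Esrrb had windows at chr12:86360867-86361166 and chr12:86421394-86421693 (plus strand), with matches 167 bases before and 10 bases after their starts.
Lrp2: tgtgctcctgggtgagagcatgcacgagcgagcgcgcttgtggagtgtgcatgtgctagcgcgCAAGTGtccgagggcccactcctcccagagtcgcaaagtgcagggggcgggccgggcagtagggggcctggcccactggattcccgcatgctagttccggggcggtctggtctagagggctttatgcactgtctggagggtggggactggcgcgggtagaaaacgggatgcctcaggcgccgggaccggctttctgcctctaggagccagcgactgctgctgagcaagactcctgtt
Bpifb3: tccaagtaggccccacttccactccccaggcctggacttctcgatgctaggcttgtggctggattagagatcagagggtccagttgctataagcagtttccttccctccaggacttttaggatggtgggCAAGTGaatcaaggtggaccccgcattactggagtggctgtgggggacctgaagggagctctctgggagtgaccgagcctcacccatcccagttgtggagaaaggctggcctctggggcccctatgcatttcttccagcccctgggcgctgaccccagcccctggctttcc
Esrrb, first start: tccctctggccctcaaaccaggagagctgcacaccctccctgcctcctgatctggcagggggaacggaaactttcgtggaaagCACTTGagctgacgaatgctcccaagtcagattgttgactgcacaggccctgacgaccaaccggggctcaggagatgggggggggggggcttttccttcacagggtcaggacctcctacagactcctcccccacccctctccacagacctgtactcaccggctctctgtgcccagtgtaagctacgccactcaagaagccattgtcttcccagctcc
Esrrb, second start: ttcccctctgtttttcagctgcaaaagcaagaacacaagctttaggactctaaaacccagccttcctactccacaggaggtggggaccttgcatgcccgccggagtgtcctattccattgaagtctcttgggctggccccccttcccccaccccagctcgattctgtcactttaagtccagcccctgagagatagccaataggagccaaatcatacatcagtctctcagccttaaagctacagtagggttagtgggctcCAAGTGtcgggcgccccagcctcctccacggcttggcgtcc

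Windows were found for 15 of 24 genes searched (19 windows in all), and 5 of the 19 (26.3%) held CAAGTG on either strand, those of Lrp2, Bpifb3, Esrrb and Gbp3. Over all 32851 windows the share was 13.6%. The GATA letters AGATAA and the letters AAGGTCA, bound by the receptor class of Esrrb, were in 0 of the 19 windows, with 11.2% and 4.72% over all windows. The T-box letters AGGTGTGA were in 1 window, that of Rnf152, with 1.28% over all. The motifs were chosen after levels had been seen. None contains the whole of another, though AAGGTCA and AGGTGTGA share the run AGGT. A match is a description of letters, not a bound site.

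**Figure D1:**
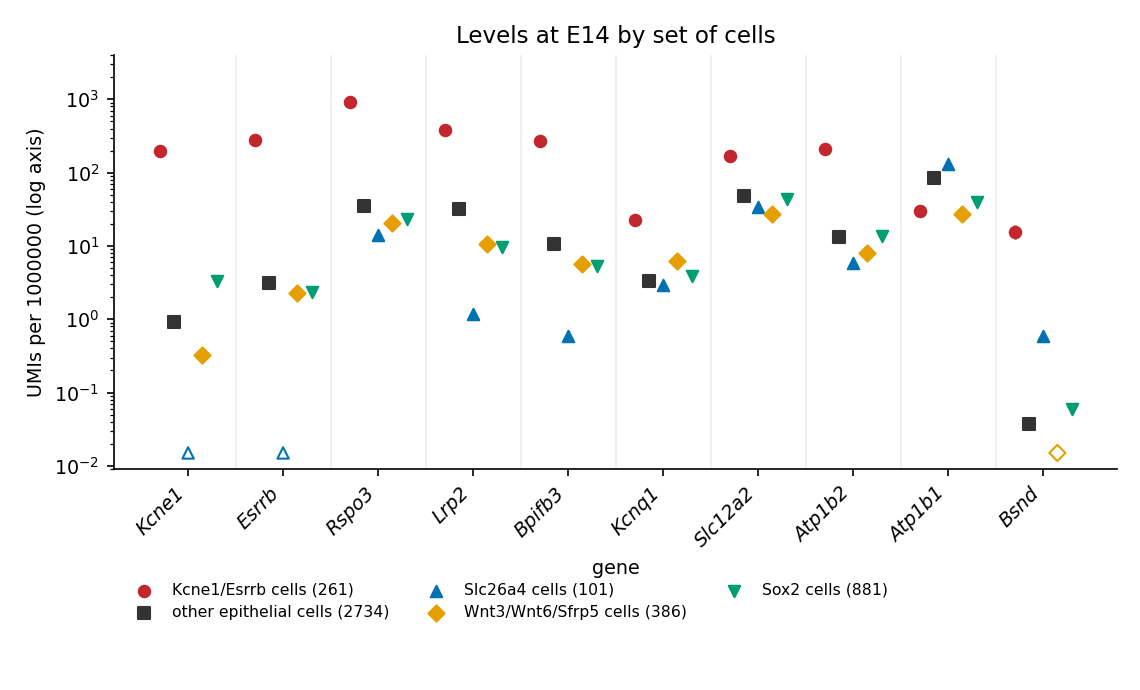
UMIs per 1000000 (log axis) of marker and potassium secretion genes in the 261 Kcne1/Esrrb cells, the 2734 other epithelial cells and 3 further sets of E14 epithelial cells, with 95% Poisson intervals of the Kcne1/Esrrb cells where wider than the symbol. Open symbols at the foot of the axis mark sets with 0 UMIs, and Rspo3 at 925 CPM, Atp1b2 at 212 CPM and Slc12a2 at 171 CPM stood above every other set, while Atp1b1 at 29.8 CPM did not.

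A gene was called higher or lower when its CPM ratio was at least 2 or at most 0.5, among genes with 100 or more UMIs over both sets. Of 11754 such genes, 415 (3.53%) were at least 2-fold higher in the Kcne1/Esrrb cells and 1058 (9.00%) at least 2-fold lower, and the median ratio of all of them was 1.01. Since the rule used this contrast, nothing is read from the comparison with these shares.

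The genes of potassium secretion were taken first. Of 20 listed, 12 could be compared, 5 were at least 2-fold higher and 2 at least 2-fold lower, with a median ratio of 1.68. Atp1b2, a beta subunit of the Na,K-ATPase, was 212 CPM in the Kcne1/Esrrb cells against 13.3 CPM in the other epithelial cells, a ratio of 15.9 (14.1 to 18.0). Kcnq1, the pore of the apical channel, was 22.8 against 3.35 CPM, a ratio of 6.79 (5.11 to 9.07), and was seen in 27.6% of the cells against 2.93%. Slc12a2, the sodium-potassium-chloride cotransporter, was 171 against 47.3 CPM, a ratio of 3.61 (3.30 to 3.94).

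Bsnd, a chloride channel subunit, had 77 UMIs in the Kcne1/Esrrb cells against 1 UMI in the other epithelial cells, a ratio of 417 with a counting interval of 72.6 to 16670, and was too low for the 100-UMI limit. Atp1b1, the other common beta subunit of the Na,K-ATPase, was lower, at 29.8 against 84.5 CPM, a ratio of 0.353 (0.297 to 0.417). Fxyd2, a regulatory subunit of the same pump, was the other gene of the list at least 2-fold lower, with a ratio of 0.385. The potassium channel gene Kcnk1 had a ratio of 1.69, and Kcnj10 had only 8 against 83 UMIs.

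Other endolymph transport genes did not follow. Of 15 compared, 1 was at least 2-fold higher and 7 at least 2-fold lower, with a median ratio of 0.704. The higher gene was Atp2b1, a plasma membrane calcium pump, at 517 against 219 CPM (ratio 2.36). Slc26a4, the anion exchanger pendrin of other nonsensory epithelium, was 2.22 against 18.2 CPM (0.122), and the glutamate transporter Slc1a3, also used as a supporting cell marker, was 26.2 against 154 CPM (0.17). Lower ratios were also seen for the water channel Aqp1 (0.226), the sodium channel subunit Scnn1b (0.21), the calcium pump Atp2b2 (0.119), and the bicarbonate and anion carriers Slc4a4 and Slc26a7 (0.394 each). Carbonic anhydrase Car2 had a ratio of 1.10.

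Among nuclear receptors and coactivators, 1 of 10 compared was higher and 2 were lower, with a median ratio of 1.05. Ppargc1a, the coactivator that partners with estrogen-related receptors in mitochondrial gene control, was 6.25 against 3.05 CPM (2.05, 1.31 to 3.13), and Esrra was 13.3 against 8.12 CPM (1.64). Nr2f1 (0.213) and Nr2f2 (0.407) were lower. Of 21 mitochondrial energy genes, 2 were higher and 2 lower, with a median of 1.08. Ldhb, a lactate dehydrogenase subunit, was 1626 against 550 CPM (2.95), and Cox7a1, a cytochrome oxidase subunit, 31.2 against 7.93 CPM (3.94), while the creatine kinases Ckb (0.255) and Ckmt1 (0.222) were lower.

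**Figure D2:**
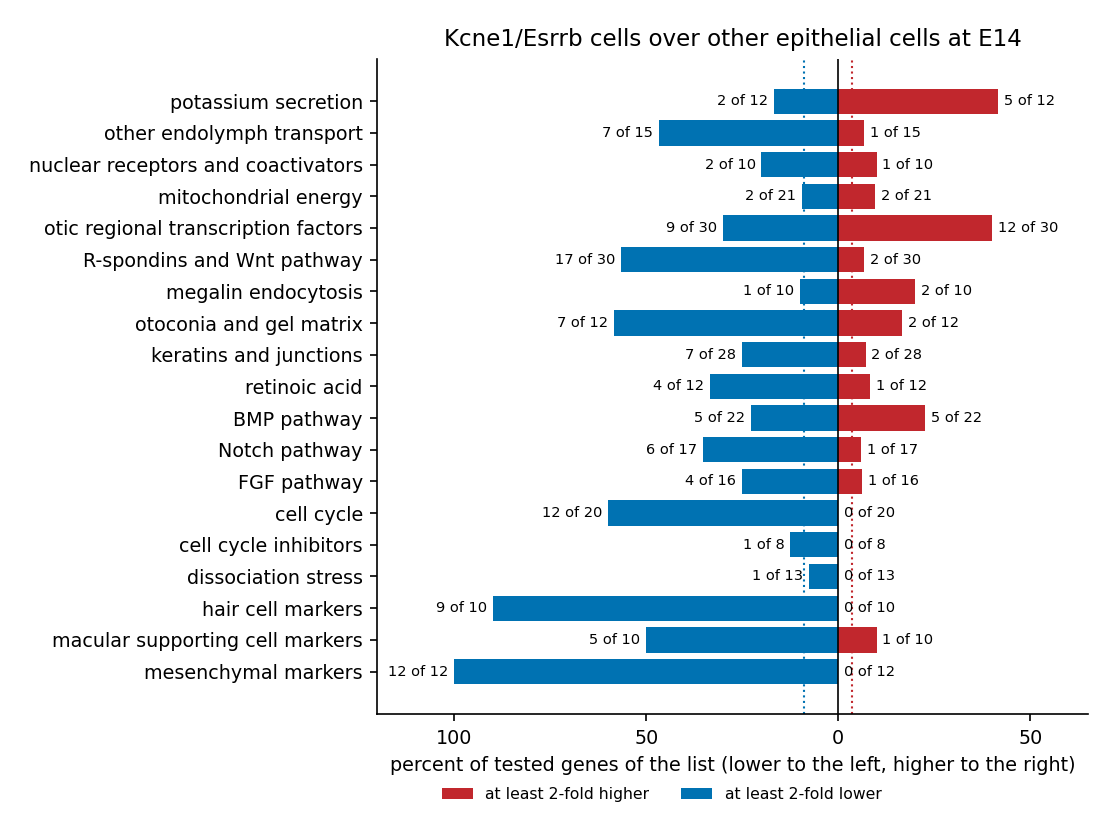
Percent of the compared genes of each list that were at least 2-fold higher (right, red) or at least 2-fold lower (left, blue) in the Kcne1/Esrrb cells than in the other epithelial cells at E14, with the counts beside the bars. Dotted lines mark the shares over all genes, 3.53% and 9.00%, and the potassium secretion list (5 of 12) and the otic regional transcription factors (12 of 30) held the highest shares of higher genes among the lists drawn.

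The 15 highest ratios among genes found in at least 10% of the Kcne1/Esrrb cells took in genes from several processes. Besides Rspo3, Bpifb3 and Atp1b2, they were Col6a4 (a collagen VI chain), Gbp3 (a guanylate-binding protein), Rnf152 (a lysosomal ubiquitin ligase), Ehd3 (an ATPase of endocytic recycling), Aldh1a2 (a retinaldehyde dehydrogenase that makes retinoic acid), Grem1 (a secreted BMP antagonist), Rgs4 (a regulator of G-protein signalling), Lce3a (a late cornified envelope gene), Add2 (a membrane skeleton adducin), Rit2 (a Ras-related GTPase), Wnt11 (a Wnt ligand) and Cfap161 (a cilia-associated protein). Col6a4 led with 100 UMIs against 6, or 20.2 against 0.223 CPM, a ratio of 90.2 (40.0 to 252). Ehd3 was 181 against 7.34 CPM (24.7), in 78.2% of the cells against 5.96%. The ratios of the 15 ran down to 13.9 for Cfap161. In Lce3a 23.9% of the UMIs came from 1 cell.

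The 10 lowest ratios, among genes found in at least 10% of the other epithelial cells, ran from 0.0412 to 0.0959. Emx2, a transcription factor of hair bundle orientation, was lowest, with 5 UMIs in the Kcne1/Esrrb cells against 657. Otoa (otoancorin, which attaches gel matrix to the epithelium), Brip1 (a DNA helicase), Lmo1 (a LIM-only factor), Tnc (the matrix protein tenascin C), Tnfaip2, the cytokine Il33, the ligands Wnt6 and Wnt4, and Plcd4 (a phospholipase C) followed. Wnt6 was 8.06 against 87.8 CPM and Il33 3.83 against 43.5 CPM. Not all of these genes were low against each single set of epithelium, as given below.

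Of 30 otic regional transcription factors compared, 12 were at least 2-fold higher and 9 at least 2-fold lower, with a median ratio of 1.12. Gata3, a zinc finger factor of otic development, was 71.0 against 8.72 CPM (8.14, 6.88 to 9.65), and Prdm16 was 52.8 against 10.8 CPM (4.87). Hmx2, needed in the mouse for vestibular morphogenesis, was 536 against 202 CPM (2.65) and was seen in 97.3% of the cells against 47.4%, and its neighbour Hmx3 had a ratio of 2.15. Meis1 (3.24), Dlx6 (3.15), Dlx5 (2.88), Dlx2 (2.73), Tbx3 (2.33), Tbx1 (2.22), Pax2 (2.22) and Bcl11b (2.08) completed the higher group. Lmx1a, a dorsal otic factor, was 75.6 against 44.8 CPM (1.69). The lower genes included Emx2 (0.0412), Sall3 (0.0423), Otx2 (0.0899), Eya1 (0.206), Irx5 (0.227), Irx3 (0.273), Nr4a3 (0.304) and Sox9 (0.469). Otx2, a further marker of nonsensory roof epithelium, was thus low at 2.42 against 26.9 CPM.

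Beside the high Rspo3, most of the Wnt pathway was lower. Apart from Rspo3, 30 genes of the list were compared, of which 2 were at least 2-fold higher and 17 at least 2-fold lower, with a median ratio of 0.40. Wnt11, a ligand best known for signalling without beta-catenin, was 44.3 against 3.09 CPM (14.3, 11.1 to 18.7), and the nuclear effector Tcf7l2 was 141 against 54.6 CPM (2.58). Axin2, a general target of beta-catenin signalling, was 7.06 against 28.5 CPM (0.247, 0.171 to 0.347). The effector genes Lef1 (0.232) and Tcf7 (0.234) and the targets Sp5 (0.155) and Nkd1 (0.284) were lower with it. So were the ligands Wnt6 (0.0918), Wnt4 (0.0953) and Wnt3 (0.12), the R-spondin Rspo2 (0.216), the receptor Fzd1 (0.203), and the secreted inhibitors Sfrp5 (0.0766), Dkk3 (0.127), Wif1 (0.156), Dkk2 (0.205), Frzb (0.388), Sfrp1 (0.413) and Sfrp2 (0.491). Of the Sfrp5 UMIs in the Kcne1/Esrrb cells, 88.9% came from 1 cell.

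Of the genes of megalin endocytosis, a pair was higher along with Lrp2. Of 10 compared genes of that list, 2 were at least 2-fold higher and 1 lower, with a median of 1.26. The adaptor Dab2 was 206 against 64.3 CPM (3.21) and the chaperone Lrpap1 511 against 190 CPM (2.68), while the Fc receptor Fcgrt had a ratio of 0.486. Dab2 was also high in immune cells of this library, at 944 CPM.

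The otoconia and gel matrix genes were divided. Oc90, the main matrix protein of mouse otoconia, had 52.1, 139 and 266 UMIs per 10000 at the 10th percentile, median and 90th percentile of the Kcne1/Esrrb cells, against a median of 27.8 in the other epithelial cells. It summed to 15592 against 7115 CPM (2.19), and mesenchymal and immune cells of the library had 37.4 and 54.3 CPM. Sparcl1, a matrix protein also found in otoconia, was 291 against 79.8 CPM (3.66). The other 7 genes past 2-fold were lower: the collagen-like otoconial scaffold Otol1 (0.23), the proton channel Otop1 (0.14), the tectorins Tecta (0.126) and Tectb (0.0207, from 1 UMI), the otogelins Otog (0.403) and Otogl (0.137), and Otoa (0.0648). The median over the 12 compared genes was 0.316.

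Most epithelial junction genes lay between the limits, with 2 of 28 higher, 7 lower and a median of 0.964. The tight junction genes Cldn11, which seals the basal cell layer of the stria in the cochlea, and Cldn8 were the higher pair, at 151 against 34.4 CPM (4.39) and 134 against 52.6 CPM (2.54). Keratins Krt8 and Krt18 were 356 against 463 CPM and 710 against 912 CPM, and Krt19 was lower at 6.25 against 45.4 CPM (0.138). The connexins Gjb6 (0.088), Gjb2 (0.197) and Gja1 (0.227) were also lower.

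Retinoic acid genes moved apart. Aldh1a2 was 205 CPM in the Kcne1/Esrrb cells against 9.31 CPM in the other epithelial cells (22.0, 19.2 to 25.4), with a median of 1.29 UMIs per 10000 against 0. The second synthesis gene Aldh1a1 (0.16) and the retinol dehydrogenase Rdh10 (0.256) were lower, and the degrading enzyme Cyp26b1 had 0 UMIs, below the 0.605 CPM that 3 UMIs would give, against 118 UMIs. In all, 1 of 12 compared was higher and 4 were lower.

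In the BMP pathway 5 of 22 genes were higher and 5 lower, with a median of 1.15. Grem1, an antagonist of BMP2 and BMP4, was 150 against 7.08 CPM (21.2, 18.1 to 25), though it was found in only 47.1% of the cells. The receptor Bmpr1b (2.65), the antagonist Chrdl1 (2.60), the ligand Bmp3 (2.30) and the target Id2 (2.07) were also higher. Ligands Bmp2 (0.301), Bmp4 (0.412), Bmp6 (0.471) and Gdf10 (0.153) were among the lower genes.

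Of 17 Notch genes, 1 was higher (Dtx1, 2.33) and 6 were lower, among them the target Hes5 at 1.01 against 19.0 CPM (0.053). Of 16 FGF genes, 1 was higher (Etv4, 2.07) and 4 were lower, with Fgf8 at 0.0436 and Fgf10 at 0 against 123 UMIs. None of 20 cell cycle genes was higher and 12 were at least 2-fold lower, with a median of 0.481. Mki67, a proliferation marker, was 19.96 against 47.8 CPM (0.417). After thinning, 10.9% of the Kcne1/Esrrb cells and 22.7% of the other epithelial cells had 3 or more UMIs of the cell cycle list (unthinned, 36.0% and 38.8%). Among the stress genes of dissociation 1 of 13 passed 2-fold, with a median of 1.15.

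Markers of other cell types were mostly lower than in the other epithelial cells. Of 10 hair cell markers compared, 9 were at least 2-fold lower, with a median ratio of 0.0509, where the rule had kept Pou4f3 cells out of the Kcne1/Esrrb cells and not out of the other epithelial cells, and of 10 macular supporting cell markers 5 were lower and 1, the neurotrophin Ntf3 (2.07), was higher. Immune, endothelial, glial and red blood cell lists had 2 of 9, 5 of 6, 6 of 10 and 4 of 7 genes lower and 0 higher. Melanocyte markers had 0 of 4 past 2-fold, and the 76 Dct UMIs all came from 1 cell. Red blood cell genes summed to 6023 CPM against 11213 CPM.

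Mesenchymal RNA also differed between the sets. All 12 mesenchymal markers were at least 2-fold lower in the Kcne1/Esrrb cells, and the list summed to 1390 CPM, against 4906 CPM in the other epithelial cells and 21330 CPM in mesenchymal cells of the library. Cells with more than 2 UMIs of Col1a2, Col3a1, Pou3f4 and Otor were 26.1% of the Kcne1/Esrrb cells and 42.4% of the others. The comparison was repeated without them, in 193 against 1575 cells. Of 10333 genes then compared, 327 (3.16%) were higher and 803 (7.77%) lower. The named genes that could still be compared kept their side, 13 of 13 higher and 10 of 10 lower. They had been picked as the extremes of the same contrast in these cells, so nothing is read from that count. Rspo3 had a ratio of 24.3, Bpifb3 of 19.8, Lrp2 of 10.2, Gata3 of 7.66 and Kcnq1 of 4.86. The transcription factors at least 2-fold higher numbered 7 of 29 in place of 12 of 30, since Hmx3 (1.80), Tbx1 (1.93), Tbx3 (1.95), Pax2 (1.80) and Bcl11b (1.96) were then just under 2. Oc90 (1.88), Ntf3 (1.89), Bmp3 (1.81) and Id2 (1.81) were also under 2, and 3 of 17 BMP pathway genes were higher. Ppargc1a had a ratio of 1.80, with too few UMIs to be compared. Of 20 cell cycle genes, 17 were lower (median 0.331).

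The Kcne1/Esrrb cells were also set beside the other 223 cells of the cluster that held most of them, where several levels were nearer. Rspo3 was 925 CPM in the Kcne1/Esrrb cells against 288 CPM in those 223, Lrp2 386 against 217 CPM, Slc12a2 171 against 104 CPM and Hmx2 536 against 388 CPM. Tbx1 was 182 against 178 CPM, and Oc90 was lower in the Kcne1/Esrrb cells, at 15592 against 18487 CPM. Further E14 sets of other epithelium were also compared. These were 101 of the other epithelial cells with 2 or more Slc26a4 UMIs, 386 with 2 or more UMIs of Wnt3, Wnt6 and Sfrp5 summed, and 881 cells with 2 or more Sox2 UMIs. Genes at least 2-fold higher in the Kcne1/Esrrb cells made up 5.42%, 5.35% and 5.73% of those compared with the Slc26a4, Wnt and Sox2 sets, and genes at least 2-fold lower 2.92%, 4.38% and 7.67%. Rspo3 was 925 CPM in the Kcne1/Esrrb cells, against 14.0, 20.5 and 23.5 CPM in the Slc26a4, Wnt and Sox2 sets, and Lrp2 386 CPM against 1.17, 10.5 and 9.74 CPM. Of the 10 named lower genes, 3, 4 and 10 had enough UMIs to be compared with these sets, and all of those were at least 2-fold lower. With too few UMIs, Wnt6 was 8.06 against 10.5 CPM and Tnc 2.02 against 1.75 CPM in the Slc26a4 set. Wnt4 was likewise 5.24 against 6.31 CPM in the Wnt set.

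Potassium secretion genes were higher in 5 of 11, 4 of 11 and 5 of 13 compared with the Slc26a4, Wnt and Sox2 sets, and lower in 1, 0 and 2. Slc12a2 was 171 CPM, against 33.9, 27.5 and 43.7 CPM. For Atp1b1 the order was different, with 29.8 CPM in the Kcne1/Esrrb cells, against 130 CPM in the Slc26a4 set, 27.3 CPM in the Wnt set and 40.3 CPM in the Sox2 set. Oc90 was 15592 CPM, against 2868, 7457 and 3809 CPM. Red blood cell markers were higher in 4 of 6 and lower in 2 against the Slc26a4 set, and higher in none against the others. Macular supporting cell markers were higher in 3 of 6 and lower in 1 against the Wnt set, and higher in none otherwise. Endothelial and pericyte markers were higher in 1 of 1, 0 of 1 and 1 of 2 for the Slc26a4, Wnt and Sox2 sets. Cell cycle genes were lower in 1 of 13 against the Slc26a4 set, 15 of 20 against the Wnt set and 13 of 20 against the Sox2 set, and higher in none. The Wnt pathway list had 2 of 11 genes higher and 2 lower against the Slc26a4 set, 4 of 21 and 9 against the Wnt set, which was chosen on 3 of its genes, and 3 of 29 and 14 against the Sox2 set.

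At a fixed depth of 3000 UMIs, 258 of the Kcne1/Esrrb cells and 2068 of the other epithelial cells remained, and 3 and 666 were too shallow. Rspo3 was then found in 80.6% against 7.74% of cells, Lrp2 in 70.9% against 6.24%, Atp1b2 in 44.2% against 3.82%, Bpifb3 in 42.6% against 2.47%, Aldh1a2 in 38.4% against 2.85% and Slc12a2 in 36.8% against 11.9%. Hmx2 was found in 74.4% against 34.2%, Ehd3 in 38.8% against 2.22% and Kcnq1 in 7.36% against 1.26%. Unthinned shares were 96.6% against 12.8% for Rspo3 and 96.2% against 11.8% for Lrp2, and those of Hmx2, Ehd3 and Kcnq1 are given above. Immune cells, which should lack these genes, showed Rspo3 in 1.02%, Lrp2 in 0.508% and Bpifb3 in 0 of 197 cells at the same depth. For Bpifb3 the exact interval allows a share of up to 1.86% (the 294 immune cells before thinning had a median of 6340.5 UMIs). The shares in the Kcne1/Esrrb cells stood above this background. For Slc12a2 mesenchymal cells had 18.8%. Across the thinned cells of both sets, Kcne1 was found in 37.1% of the 151 with Esrrb and in 2.02% of the 2175 without it, and Rspo3 in 82.1% and 11.2%.

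The limit of 2 UMIs cut through a gradient. Just inside it were 49 cells with 2 UMIs of Kcne1 and Esrrb, and just outside 99 cells with 1 UMI that met the rest of the rule. Rspo3 was 1050 CPM in the 178 cells with 4 or more UMIs, 632 with 3 and 422 with 2, against 234 CPM with 1 and 24.4 CPM in the 2422 cells with none. Lrp2 was 408, 332 and 296 CPM inside, against 242 and 21.5 CPM outside. The cells with 1 UMI thus had levels nearer to the cells inside than to those with none for Lrp2, and intermediate levels for Rspo3. Oc90 did not follow the steps, at 15120, 15334 and 18470 CPM inside, against 13421 CPM with 1 UMI and 7069 CPM with none. Wnt6 ran the other way, at 5.24, 23.2 and 13.5 CPM inside, against 63.4 and 92.8 CPM.

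**Figure D3:**
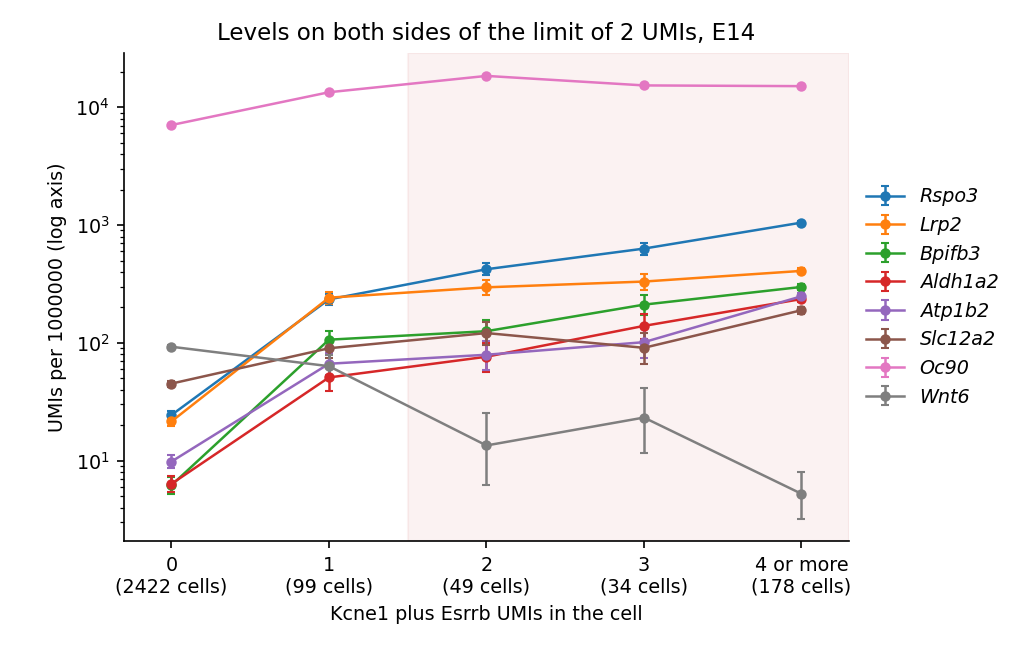
UMIs per 1000000 (log axis, bars are 95% Poisson intervals) of 8 genes in E14 cells by their summed Kcne1 and Esrrb UMIs, with the cells that met the rule in the shaded area. Rspo3 runs through 24.4, 234, 422, 632 and 1050 CPM, while Oc90 stays between 13421 and 18470 CPM from 1 UMI on.

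Within the Kcne1/Esrrb cells, the 87 cells richest in the pair per UMI were set beside the 87 poorest. The richest 87 were shallower, with a median of 9530 against 19154 UMIs per cell, and the medians of the pair were 8.69 and 1.95 UMIs per 10000. Of 4764 genes compared, 95 (1.99%) were at least 2-fold higher in the richest 87 and 97 (2.04%) lower. Of the 12 named genes that could be compared 11 were higher. The split used the pair that the rule used, and the named genes came from that contrast, so nothing is read from this count. Lce3a, which fell short of 100 UMIs, ran the other way with 9 UMIs in the richest 87 against 89 in the poorest (5.85 against 47.5 CPM). Aldh1a2 was 386 against 75.2 CPM (5.13, 4.26 to 6.21), Atp1b2 387 against 90.2 CPM (4.29), Rspo3 1539 against 442 CPM (3.48) and Rgs4 100 against 15.5 CPM (6.47). Among transport genes, Slc12a2 was 259 against 94.4 CPM (2.74). Fabp3, a fatty acid-binding protein, had a ratio of 6.24 and Ldhb 2.20. Lrp2, Hmx2 and Oc90 stayed under 2-fold, with Lrp2 at 1.76, Hmx2 at 1.44 and Oc90 at 0.766.

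Cell cycle genes were lower in the richest 87 in 7 of 7, with Top2a at 5.20 against 69.4 CPM, and the cell cycle inhibitor Cdkn1a was higher at 121 against 32.0 CPM (3.77), while Cdkn1c was lower (0.429). Mesenchymal genes moved with the same split, with Col3a1 at 11.0 against 73.1 CPM and Otor at 375 against 1829 CPM. Without the cells that had more than 2 mesenchymal UMIs, 64 and 65 cells were left and 1.68% of 3384 genes were higher and 1.42% lower. Then 10 of 12 named genes were higher, a count with the same limit. Rspo3 was at 3.20, Aldh1a2 at 4.48, Atp1b2 at 3.63 and Slc12a2 at 2.36, and no cell cycle gene reached 100 UMIs.

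The same rule found 30 cells in the P2 library, 1.55% (1.05 to 2.20%) of the 1937 P2 cells with Epcam and at most 1 Sox2 UMI, and 0.735% of all 4081. These cells were not used to choose the E14 cells. Of the 30, 23 had both genes and 7 had Kcne1 alone, and 29 lay in 1 of 20 clusters. Their median was 9350 UMIs, against 4473 in the other 1907 epithelial cells. Of 10227 genes compared, 695 (6.80%) were at least 2-fold higher in the P2 Kcne1/Esrrb cells and 2144 (21.0%) lower. With only 440980 UMIs in the 30 cells, 367 of the lower genes had 0 UMIs there and 283 had a counting interval wholly at or below 0.5, so for most lower calls at P2 counting error reached past the limit.

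Of the 15 genes with the highest E14 ratios, 6 could be compared at P2 and 5 were at least 2-fold higher. Rspo3 was 2778 CPM against 31.4 CPM (88.4, 79.6 to 98.4), Bpifb3 717 against 8.00 CPM (89.6), Aldh1a2 771 against 12.9 CPM (59.9), Atp1b2 492 against 19.0 CPM (25.9) and Ehd3 had a ratio of 19.2. Cfap161 was the exception, with a ratio of 1.60 (0.787 to 2.91). The other 9 had too few UMIs for the comparison. Of these, Rnf152, Rgs4, Add2 and Wnt11 had 46, 41, 32 and 13 UMIs in the 30 cells against 20, 6, 6 and 7 in the 1907, and Grem1, Rit2, Gbp3, Lce3a and Col6a4 had 0 UMIs in the 30 cells, where 3 UMIs would be 6.80 CPM. All 10 of the named lower genes were at least 2-fold lower at P2, though for Wnt6 (0.119 to 1.13), Wnt4 (0.0391 to 1.19) and Tnc (0.0926 to 1.34) the interval went past 1.

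Of 14 potassium secretion genes compared at P2, 6 were at least 2-fold higher and 5 lower, with a median ratio of 0.608. Slc12a2 was 1016 against 33.5 CPM (30.4, 26.7 to 34.5) and Kcnq1 102 against 6.97 CPM (14.6). Atp1b2 and Kcnk1, the last at 168 against 43.3 CPM (3.87), were also among the 6. Bsnd had 31 UMIs in the 30 cells against 5 UMIs in the 1907. Atp1b1 was again the low beta subunit, at 202 against 520 CPM (0.388).

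Lrp2 was 426 against 4.29 CPM at P2 (99.4), Dab2 111 against 6.02 CPM (18.5) and Lrpap1 1059 against 287 CPM (3.68). Mitochondrial energy genes were at least 2-fold higher in 12 of 21, with a median of 2.22 beside 0.867 over all genes at P2, and Cox7a1 was 141 against 10.6 CPM (13.3). Ppargc1a was 99.8 against 8.06 CPM (12.4) and Esrra 72.6 against 12.5 CPM (5.82). Transcription factors were higher in 6 of 26 and lower in 9, with a median of 0.891. The higher ones included Tbx1 (25.3), Gata3 (8.24), Prdm16 (5.97) and Pax2 (4.82), while Hmx2 was at 1.87, Dlx5 at 0.822 and Dlx6 at 0.36. Wnt pathway genes were lower in 15 of 26, with Sfrp1 at 65.8 against 1743 CPM. Markers of other cells were not all low in the 30 cells. Col3a1 was 79.4 against 2.88 CPM and Col1a1 34.0 against 4.67 CPM, each from 1 cell, and the endothelial marker Kdr was 102 against 4.48 CPM, and the melanocyte markers Mitf and Pmel 49.9 against 3.78 CPM and 74.8 against 5.57 CPM. Their part in the P2 ratios was not tested, and without cells with mesenchymal UMIs 29 cells were left and the same count of 5 named genes was past 2-fold.

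**Figure D4:**
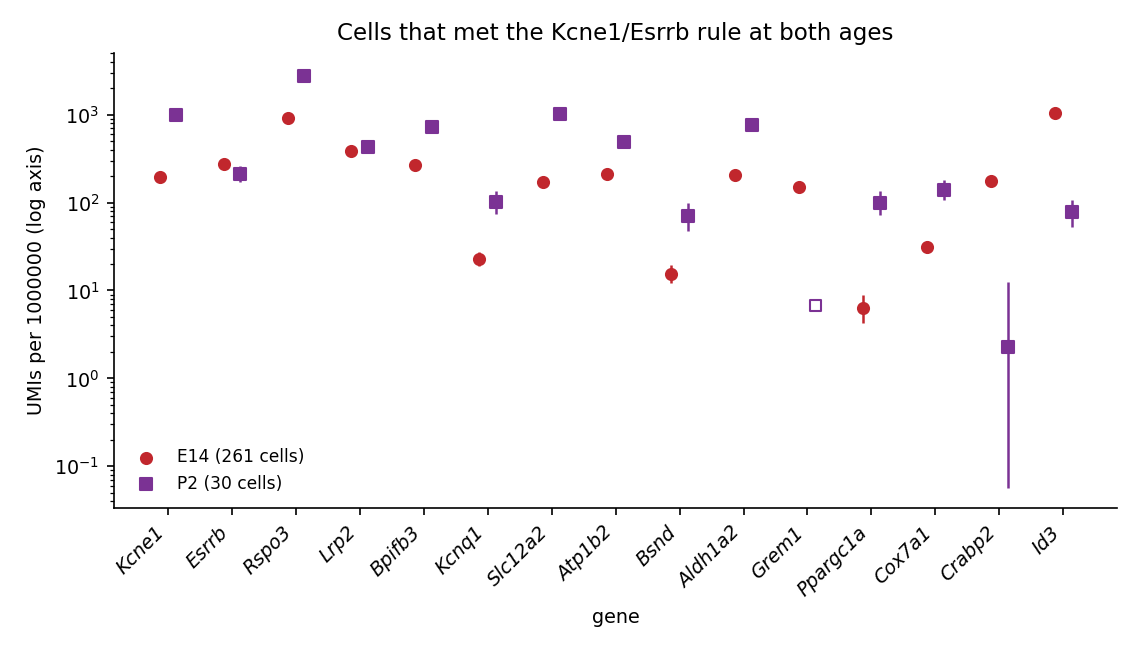
UMIs per 1000000 (log axis, bars are 95% Poisson intervals) of 15 genes in cells that met the Kcne1/Esrrb rule at E14 (261 cells) and at P2 (30 cells), with the open square for Grem1, which had 0 UMIs at P2, drawn at the 6.80 CPM that 3 UMIs would give. Slc12a2 (171 and 1016 CPM) and Ppargc1a (6.25 and 99.8 CPM) were lower at E14, and Id3 (1041 and 77.1 CPM) and Crabp2 were higher.

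The cells that met the rule were set side by side across age, as E14 over P2. Since each age was 1 library, age and library cannot be told apart. The ratio of the same gene in the other epithelial cells is given where it bears on the value. The rule asked for 2 UMIs at both ages, though median depth in these cells was 14615 UMIs at E14 and 9350 at P2. Within E14, Rspo3, Aldh1a2, Atp1b2 and Slc12a2 were higher in the cells richest in the pair, which were shallower. How far depth entered the age ratios was not tested. Of 6513 genes compared, 846 (13.0%) were at least 2-fold higher at E14 and 385 (5.91%) lower. Transport genes were lower at E14, with Slc12a2 at 171 CPM in the E14 cells and 1016 CPM in the P2 cells (0.168, 0.15 to 0.189) while its ratio in the other epithelial cells was 1.41. The ratios were 0.223 for Kcnq1, 0.221 for Bsnd and 0.431 for Atp1b2, beside 0.481, 0.116 and 0.70 for the same genes in the other epithelial cells. Kcne1 was 198 CPM in the E14 cells and 984 CPM in the P2 cells (0.201), and Esrrb 277 and 211 CPM (1.31, 1.06 to 1.64), both genes that the rule itself used. Rspo3 (0.333), Bpifb3 (0.372) and Aldh1a2 (0.266) were also lower at E14, beside 1.10, 1.34 and 0.724 in the other epithelial cells. Lrp2 was 386 CPM in the E14 cells and 426 CPM in the P2 cells (0.906, 0.779 to 1.06). In the other epithelial cells Lrp2 was higher at E14 than at P2.

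The 10 lowest E14 over P2 ratios were led by Lcn2, a siderophore-binding lipocalin (0.0329), the metallothionein Mt1 (0.0539) and Fabp3 (0.0614), with ratios of 0.531, 2.04 and 0.539 in the other epithelial cells. Cdkl1, AY036118, Gas6, Tmod1, Ckb, Sfrp5 and Tesc followed, with ratios up to 0.0988. Lcn2 was found in only 10% of the P2 cells and Sfrp5 in 13.3%. At E14, 1 cell held 29.6% of the Lcn2 UMIs and 1 cell 88.9% of the Sfrp5 UMIs, so these ratios rested on few cells. Cox7a1 was at 0.222, beside 0.751 in the other epithelial cells. Ppargc1a (0.0626, beside 0.379) and Esrra (0.183, beside 0.651) had fewer than 100 UMIs over both ages and were not compared. The 10 highest held 4 haemoglobin genes, led by Hbb-bs at 489, whose ratio in the other epithelial cells was 846, and the mesenchymal gene Otor at 484 beside 64.1, so those were not limited to these cells. Crabp2, a retinoic acid-binding protein, was 174 CPM in the E14 cells and 2.27 CPM, from 1 UMI, in the P2 cells (76.8, 13.7 to 3037), beside 2.26 in the other epithelial cells. Pthlh, a parathyroid hormone-related peptide, was at 48.5 (8.68 to 1921) beside 7.94, and the factor Klf2 at 34.2 (6.11 to 1355) beside 2.58. Tpm3-rs7 (35.7 beside 52.1) and Pyy (30.1 beside 278), with 83.3% of its E14 UMIs from 1 cell, completed the group. In the P2 cells Otor, Pthlh, Klf2 and Tpm3-rs7 also had only 1 UMI each, and Pyy had 2, so the size of these ratios is uncertain. The BMP targets Id3 (13.5) and Id1 (4.29) were higher at E14, beside 1.77 and 0.604 in the other epithelial cells. Grem1 was 150 CPM at E14 with 0 UMIs at P2. Its ratio was 22.1 with the floor of 3 UMIs at P2, and the lower end of its counting interval was 17.9. In the other epithelial cells the Grem1 ratio was 55.3, from 2 UMIs at P2.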

How the data were processed

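Single cells of WT mouse utricular sensory epithelium were measured with the 10x Genomics 3′ v3.1 chemistry, with 1 library at E14 and 1 at P2. The authors deposited UMI counts by gene and barcode, made with Cell Ranger 3.1.0 and not normalized. The labels name GRCm39 and mm10 as builds, which was not settled here, and no coordinate was taken from the counts. The authors' later steps in Seurat 4.1.1 do not enter the counts and were skipped. All columns were used, so 0 were left out.

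Barcodes were kept with at least 500 genes, 1000 UMIs and at most 15% mitochondrial UMIs. Clustering used 2000 variable genes, 30 principal components, 15 neighbours and Leiden resolution 1. Doublets were scored against 2 simulated doublets per cell, with a share of 0.8% for every 1000 barcodes marked, and were kept in the main values. The exact rule of the cells and the sets stands in the text. Mesenchymal and immune cells for background had 0 Epcam UMIs with at least 10 UMIs of Col1a2 and Col3a1, or at least 5 of Tyrobp, Fcer1g and C1qb, each summed. The libraries held 15636 barcodes and 122892080 UMIs at E14, and 6251 barcodes and 57003553 UMIs at P2.

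Levels are UMIs summed over a set per 1000000. Exact 95% intervals (Poisson for levels, binomial for shares, and binomial given the summed UMIs for ratios) cover counting error only, and 1 library per age allows no test. Against 0 UMIs a floor of 3 UMIs was used. Genes needed 100 UMIs over both sets, and the 6 genes of the rule (Epcam, Kcne1, Esrrb, Sox2, Pou4f3 and Zpld1) were left out of counts. The text names the 15 highest and 10 lowest E14 ratios (found in at least 10% of the cells of the higher set), the markers, the genes past 2-fold in each of 26 lists and up to 4 with the highest level, and the 10 largest age ratios each way, some of them only in counts. The cells, markers, lists and motifs were chosen with earlier results of these data known. Promoter windows came from RefSeq (GRCm38.p6), where 9 of 24 genes (among them Kcne1, Rspo3, Kcnq1, Slc12a2, Atp1b2, Bsnd and Rit2) had no entry. Some genes of the lists enter the counts but are not reported here by name. Interval and ratio code was tested on simulated data. Alternatives changed the gate, cell filter, doublets, comparison cells, gene minimum, added CPM and weighting. Software was Python 3.11.15, with leidenalg 0.10.2 and igraph 0.11.9 for clusters, pandas 2.3.3, numpy 2.4.6, scikit-learn 1.9.0 and scipy 1.17.1 for values, and matplotlib 3.10.9 for plots.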

Additional observations from a re-analysis of the deposited data

How the results depend on the processing

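The number of Kcne1/Esrrb cells at E14 (261) followed the gate. It was 360 with at least 1 UMI of the pair, 212 with at least 3, 140 with Kcne1 alone, 219 with Esrrb alone, 221 with 2 per 10000 UMIs, 104 when cells were first thinned to 3000 UMIs, 222 without marked doublets and 193 without cells with mesenchymal UMIs. At P2 (30) it was 56 with at least 1 UMI, 16 with Esrrb alone, 43 per 10000 UMIs and 18 thinned. Of the genes counted at E14, 273 were higher and 509 lower with 300 UMIs required, 267 and 394 with 5 CPM added, and 1731 were lower with 30 UMIs required. Under the other alternatives both counts stayed within 1.5 times 415 and 1058. The named genes higher at P2 (5) were 8 with 30 UMIs required and 3 on thinned cells. The transcription factors higher at E14 were 7 in place of 12 without mesenchymal UMIs. Over 32 gene ratios and 19 settings, 600 values in all, 439 stayed within the counting interval of the reported ratio, 161 left it and 0 reversed, and 1, with 5 CPM added, came under 2-fold. Rspo3 (26.7) was 14.0 with cells thinned before the rule and 56.0 without the leading cluster in the other cells, Bpifb3 (24.9) was 13.0 and 82.5 there, Lrp2 (12.1) was 31.9 without that cluster, Col6a4 (90.2) was 4.82 with 5 CPM added and 166 without the cluster, and Lce3a (18.5) was 2.27 with Kcne1 alone and 46.95 without the cluster. No paired analysis was possible because each age is 1 library without replicate numbers. Alternatives on the leading cluster, on the cell with the most UMIs, and on mesenchymal UMIs in the richest cells, the cell cycle and the transcription factors were added after seeing the data. Depth left Bsnd under 100 UMIs at both ages, and 283 of the 2144 genes lower at P2 had an interval wholly at or below 0.5.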
